A study of Mus musculus with 18 samples.

Results

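The genes described here are those of branched-chain amino acid (BCAA) catabolism together with the gene of glutamine synthetase. They were chosen by name, through the Ensembl identifiers of the count table, and no cut on a measured value defined the list. Earlier results of these data were known when it was chosen. They are 10 of the 43430 genes in the table (Bcat2, Bckdha, Bckdhb, Dbt, Bckdk, Ivd, Mccc1, Mccc2, Hibadh and Glul), and all 10 were among the 13596 genes that passed the filter on low counts and were tested.

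RNA was sequenced from myofibers of the quadriceps of C57BL/6 mice (C57BL/6J in the study's methods), in 18 libraries that fall into 6 groups of 3, male and female mice on vehicle, weekly prednisone or daily prednisone. Prednisone is a synthetic glucocorticoid. The mice were young adults, and all of them were injected intraperitoneally in the morning for several weeks. Weekly mice received prednisone on 1 day of the week and vehicle on the others, daily mice received it every day, and vehicle mice never did. By the study's methods the last weekly prednisone dose came days before sacrifice. Between weekly and daily mice, regimen and time since the last dose therefore cannot be told apart. Each library was treated as 1 mouse, so the p-values measure the spread between these mice. The myofibers were the fraction of collagenase-treated muscle that a strainer held back, which is not a sort, so other cells of the muscle can be carried along.

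Total counts ranged from 10506661 to 14686654 per library, and Xist and Ddx3y matched the sex on the label in all 18. The 9 myofiber markers (Acta1, Ckm, Myh4 and others) were detected in every library. Markers of other cells were present too. Of 10 adipocyte markers, 9 were detected in every library, and Adipoq, the gene of adiponectin, ran from 4.13 to 331 CPM, the count relative to a library total that was scaled with TMM factors. Mitochondrially encoded genes took between 11.7% and 36.4% of the counts.

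Leucine, isoleucine and valine are the BCAAs, and skeletal muscle is a main site where they are broken down. Catabolism begins with a reversible transfer of the amino group to 2-oxoglutarate, which yields glutamate and a branched-chain keto acid. The keto acid is then oxidized irreversibly by the branched-chain keto acid dehydrogenase complex in the mitochondrial matrix, whose activity is set by phosphorylation, and each carbon skeleton continues through its own series of enzymes. Glutamine synthetase joins glutamate and ammonia to form glutamine, the form in which muscle exports much of its amino nitrogen, and its gene is a textbook target of glucocorticoids.

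Promoter sequences were available in RefSeq (build GRCm38.p6) for 9 of the 10 genes, as windows from 250 bases before to 50 bases after a transcription start site. Dbt had no entry. The windows were searched on both strands for 6 short motifs, among them the core of the glucocorticoid receptor element, ACANNNTGT, which reads the same on both strands, and the CCAAT box, CCAAT or ATTGG. The core was found in 6.85% of all 32851 promoters of this length and in 3 of the 11 member promoters, those of Glul and Ivd and a second Bckdhb window at a start site inside the gene. It stood at position -25 in Glul and at position -42 in Ivd, counted from the start site to the first letter of the match, with -1 as the base before the start site. A CCAAT box was found in 37.4% of all promoters. At least 3 of them occurred in 3.37% of all promoters, and Ivd held 4, Mccc1 held 3 and Mccc2 held 3. A match of letters is a description of the sequence and not a bound site.

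The 250 upstream bases of Glul and Ivd are shown because they hold the receptor core, which is in capitals. The Glul window is chr1:153899679-153899928 on the plus strand, and the Ivd window is chr2:118861744-118861993 on the plus strand, whose last bases lie inside the gene as the count table bounds it.
Glul: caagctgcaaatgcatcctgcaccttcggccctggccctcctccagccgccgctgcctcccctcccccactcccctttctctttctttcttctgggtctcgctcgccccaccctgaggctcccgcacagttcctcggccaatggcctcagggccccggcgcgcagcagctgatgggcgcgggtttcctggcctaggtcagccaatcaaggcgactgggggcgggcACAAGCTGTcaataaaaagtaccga
Ivd: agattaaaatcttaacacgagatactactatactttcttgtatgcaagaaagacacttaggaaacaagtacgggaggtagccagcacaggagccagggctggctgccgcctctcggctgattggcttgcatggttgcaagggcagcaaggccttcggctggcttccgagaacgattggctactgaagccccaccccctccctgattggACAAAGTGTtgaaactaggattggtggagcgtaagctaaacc

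The 250 upstream bases of Mccc1 and Mccc2, the genes of the subunits of 1 enzyme, are shown because they hold the repeated CCAAT boxes, which are in capitals. The Mccc1 window is chr3:36000679-36000928 and the Mccc2 window is chr13:100015640-100015889, both on the minus strand. In Mccc2 the boxes at positions -33 and -30 overlap on opposite strands.
Mccc1: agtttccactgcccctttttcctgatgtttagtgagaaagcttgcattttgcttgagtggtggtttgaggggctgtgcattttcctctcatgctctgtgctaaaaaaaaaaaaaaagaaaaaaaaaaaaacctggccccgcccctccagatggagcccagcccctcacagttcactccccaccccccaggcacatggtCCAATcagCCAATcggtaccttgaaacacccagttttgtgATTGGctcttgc
Mccc2: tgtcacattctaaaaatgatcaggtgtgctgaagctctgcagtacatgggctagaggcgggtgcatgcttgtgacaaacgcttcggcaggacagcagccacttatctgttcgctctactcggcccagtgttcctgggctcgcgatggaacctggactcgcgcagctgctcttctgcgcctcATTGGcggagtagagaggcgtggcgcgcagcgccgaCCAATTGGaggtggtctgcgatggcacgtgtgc

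Levels were compared between genes per kilobase in the 6 vehicle libraries, where CPM was divided by the length of the principal transcript in GENCODE M21. Glul was highest, with 165.6 ± 54.6 CPM per kilobase (SD, n = 6). Bckdha followed with 57.8 ± 3.50 and Hibadh with 56.8 ± 3.13, whose ranges overlapped. Bckdk reached 46.1 ± 5.01, Bcat2 36.4 ± 4.21 and Ivd 31.8 ± 4.26, and each of these ranges overlapped with its neighbour in this order. The lower tier held Bckdhb with 13.3 ± 2.30, Mccc1 with 10.6 ± 0.919, Mccc2 with 9.69 ± 1.41 and Dbt with 5.27 ± 0.816, within which only Dbt lay apart from its neighbour. Thus the E1 subunits of the dehydrogenase complex differed, with Bckdha above Bckdhb in every vehicle library on this scale. With the gene lengths listed in the count table the order changed. Bcat2, listed at 10095 bases where the principal transcript has 1772, fell to 6.40 ± 0.739 CPM per kilobase and Bckdhb to 3.29 ± 0.569, while Glul stayed highest at 95.5 ± 31.5.

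**Figure D1:**
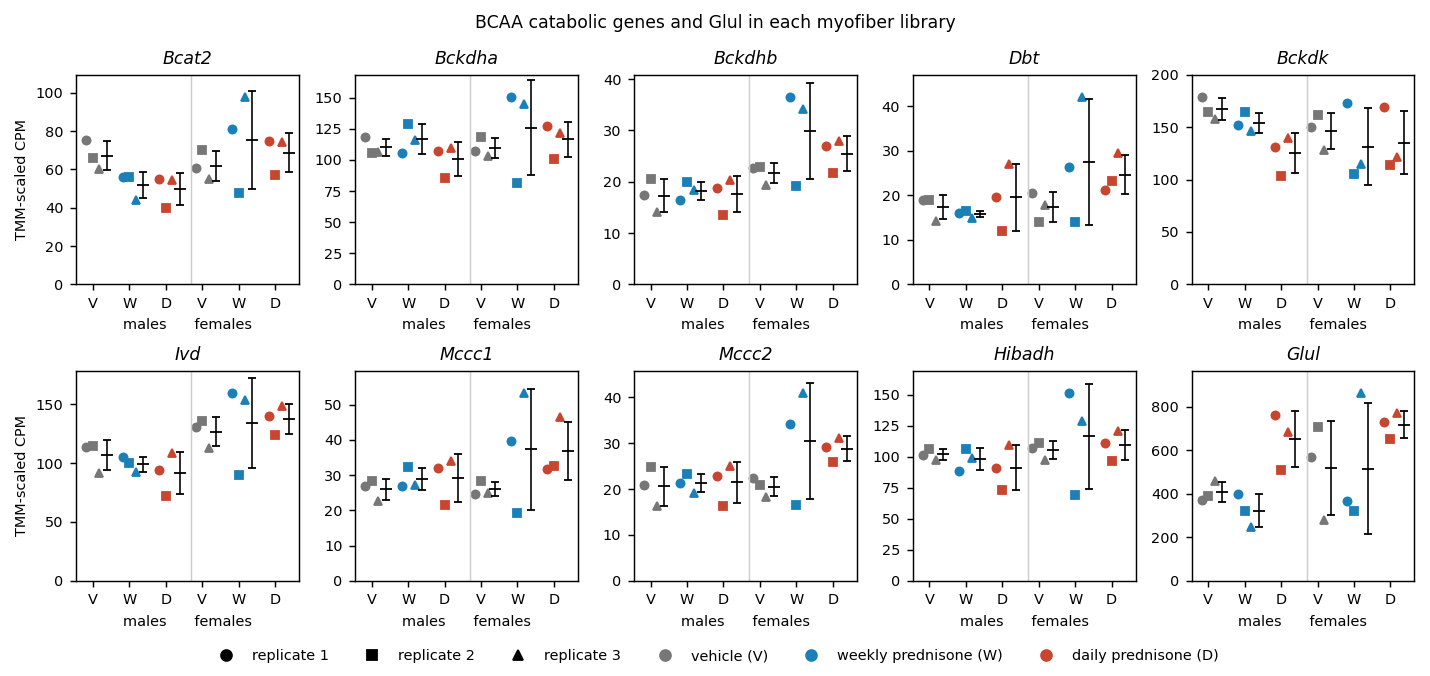
TMM-scaled CPM of the 10 genes in each of the 18 libraries, 1 panel per gene with its own axis from 0. Points are libraries (shape for the replicate number, color for treatment), and the bar beside each group is the mean ± SD of its 3 libraries. For all 10 genes female weekly replicate 2 is the lowest of the 3 female weekly libraries, and Glul lies between 509.6 and 773 CPM in all 6 daily libraries.

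The comparison of daily prednisone with vehicle asked which of the genes changed under continued glucocorticoid exposure. The clearest difference was in Glul, which was higher in daily than in vehicle libraries on average, but no member passed the test. In the mean of both sexes, edgeR called 0 of the 10 members at an adjusted p under 0.05, where it called 15% of all tested genes. At an unadjusted p under 0.05 it counted 1 member, Glul, where 29.2% of all tested genes reached that level. DESeq2 and limma-voom also called 0, each with 1 member at an unadjusted p under 0.05. The median log2 fold change was 0.05 over the 10 members and 0.02 over all tested genes. In bulk RNA of this kind, fewer fibers and less RNA per fiber cannot be told apart.

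Glul (ENSMUSG00000026473, chromosome 1, 153899944 to 153909723, plus strand) encodes glutamine synthetase. In males its level was 373, 390.3 and 458 CPM in the vehicle libraries and 763, 509.6 and 682 CPM in the daily libraries. In females it was 568, 705 and 281 CPM in the vehicle libraries and 731, 649.6 and 773 CPM in the daily libraries. The groups did not overlap in males. In females vehicle replicate 2 lay above daily replicate 2, and the groups overlapped. The log2 fold change in the mean of both sexes was 0.58 ± 0.25 (SE, 95% interval 0.05 to 1.10), with an adjusted p of 0.13 by edgeR. Male libraries alone gave 0.68 ± 0.35 (adjusted p = 0.259), female libraries gave 0.47 ± 0.35 (adjusted p = 0.517), and the difference between the sexes did not pass the test. The call depended on the fit. With library totals in place of TMM factors the change was 0.81 with an adjusted p of 0.0273, and in a fit of the compared groups alone it was 0.59 with an adjusted p of 0.0456. Over the alternatives other than leaving out a library, calls among all tested genes ran from 0 to 3486 (2033 as reported). With the adipocyte score as a covariate the female change was -0.11.

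Bcat2 (ENSMUSG00000030826, chromosome 7, 45570153 to 45589710, plus strand) encodes the mitochondrial aminotransferase of the first step. In males it measured 75.3, 65.8 and 60.4 CPM on vehicle and 54.7, 39.9 and 54.4 CPM on daily prednisone, so that every daily library lay below every vehicle library. In females it measured 60.9, 70.3 and 54.7 CPM on vehicle and 74.6, 57.1 and 74.3 CPM on daily prednisone, with overlap. The log2 fold change was -0.44 ± 0.22 in males (edgeR, adjusted p = 0.239) and -0.14 ± 0.15 in the mean of both sexes (adjusted p = 0.578).

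The next step is carried out by the dehydrogenase complex. Bckdha (ENSMUSG00000060376, chromosome 7, 25629852 to 25658761, minus strand) and Bckdhb (ENSMUSG00000032263, chromosome 9, 83925145 to 84124240, plus strand) encode the alpha and beta subunits of its E1 component. Bckdha ranged from 103 to 118 CPM over the 6 vehicle libraries, with a median of 107, and from 85.2 to 127 CPM over the 6 daily libraries, with a median of 109. Its log2 fold change was -0.02 ± 0.13 with a 95% interval of -0.30 to 0.26. This interval was the narrowest of the 10. Bckdhb ranged from 14.1 to 22.9 CPM on vehicle and from 13.6 to 27.9 CPM on daily prednisone, a log2 fold change of 0.12 ± 0.15.

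Dbt (ENSMUSG00000000340, chromosome 3, 116513070 to 116549976, plus strand) encodes the E2 core of the complex. In females it measured 20.5, 13.9 and 17.8 CPM on vehicle and 21.1, 23.2 and 29.5 CPM on daily prednisone, and the groups did not overlap. In males it measured 18.9, 18.9 and 14.3 CPM on vehicle and 19.5, 12.1 and 26.9 CPM on daily prednisone, where the daily libraries lay on both sides of the vehicle libraries. The log2 fold change in the mean of both sexes was 0.33 ± 0.23 (edgeR, adjusted p = 0.371).

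Bckdk (ENSMUSG00000030802, chromosome 7, 127904082 to 127909664, plus strand) encodes the kinase that phosphorylates E1 alpha and turns the complex off. In males it measured 179, 165.0 and 158 CPM on vehicle and 132, 104 and 140.2 CPM on daily prednisone, with every daily library below every vehicle library. In females it measured 150.4, 161 and 128 CPM on vehicle and 169, 114 and 122 CPM on daily prednisone, with overlap. The log2 fold change was -0.42 ± 0.19 in males (95% interval -0.82 to -0.02, edgeR adjusted p = 0.201) and -0.27 ± 0.13 in the mean of both sexes (adjusted p = 0.197). Within a library the ratio of Bckdk to Bckdha, which does not depend on the scaling, ran from 1.24 to 1.56 on vehicle, from 0.9995 to 1.33 on daily prednisone and from 0.791 to 1.44 on weekly prednisone. In males alone it ran from 1.48 to 1.56 on vehicle, from 1.22 to 1.28 on daily prednisone and from 1.26 to 1.44 on weekly prednisone. In females it ran from 1.24 to 1.40 on vehicle, from 0.9995 to 1.33 on daily prednisone and from 0.791 to 1.29 on weekly prednisone, with overlap. No test was run on this ratio.

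Ivd, Mccc1 and Mccc2 act on the leucine skeleton. Ivd (ENSMUSG00000027332, chromosome 2, 118861954 to 118882909, plus strand) encodes isovaleryl-CoA dehydrogenase, and Mccc1 (ENSMUSG00000027709, chromosome 3, 35959311 to 36000678, minus strand) and Mccc2 (ENSMUSG00000021646, chromosome 13, 99948533 to 100015639, minus strand) encode the alpha and beta subunits of 3-methylcrotonyl-CoA carboxylase. Ivd ran from 92.1 to 136 CPM on vehicle and from 72.3 to 149 CPM on daily prednisone, and its log2 fold change in the mean of both sexes was -0.05 ± 0.14. In females Mccc1 measured 24.6, 28.4 and 25.0 CPM on vehicle and 31.6, 32.5 and 46.4 CPM on daily prednisone. Mccc2 measured 22.4, 20.9 and 18.4 CPM on vehicle and 29.3, 25.9 and 31.2 CPM on daily prednisone. For both genes all 3 female daily libraries lay above all 3 female vehicle libraries. The female log2 fold changes were 0.50 ± 0.27 for Mccc1 (edgeR, adjusted p = 0.361) and 0.49 ± 0.25 for Mccc2 (adjusted p = 0.335). In males the groups overlapped, with Mccc1 between 22.7 and 28.4 CPM on vehicle and between 21.4 and 34.0 CPM on daily prednisone. The ratio of Mccc1 to Mccc2 within a library had a median of 1.32 on vehicle, 1.33 on daily prednisone and 1.28 on weekly prednisone.

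Hibadh (ENSMUSG00000029776, chromosome 6, 52546228 to 52640389, minus strand) encodes 3-hydroxyisobutyrate dehydrogenase of valine catabolism. It ran from 97.2 to 111 CPM on vehicle and from 73.1 to 121 CPM on daily prednisone, a log2 fold change of -0.05 ± 0.15 with a 95% interval of -0.37 to 0.27.

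Within each sex the counts were as follows. In males edgeR called 0 members, where 6.46% of all tested genes were called, and at an unadjusted p under 0.05 it counted 1, Bckdk, where the share of all tested genes was 22.8%. DESeq2 and limma-voom also called 0 in males. The male libraries did not overlap for 3 members, Glul higher and Bcat2 and Bckdk lower, where 33.4% of all tested genes did not overlap. In females edgeR called 0 members, where 0.382% of all tested genes were called, and counted 0 at an unadjusted p under 0.05, where 17.3% of all tested genes reached that level. DESeq2 and limma-voom gave 0 in both counts. The female libraries did not overlap for 3 members, all higher (Dbt, Mccc1 and Mccc2), where 23.1% of all tested genes did not overlap and 12.9% did so with daily higher.

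**Figure D2:**
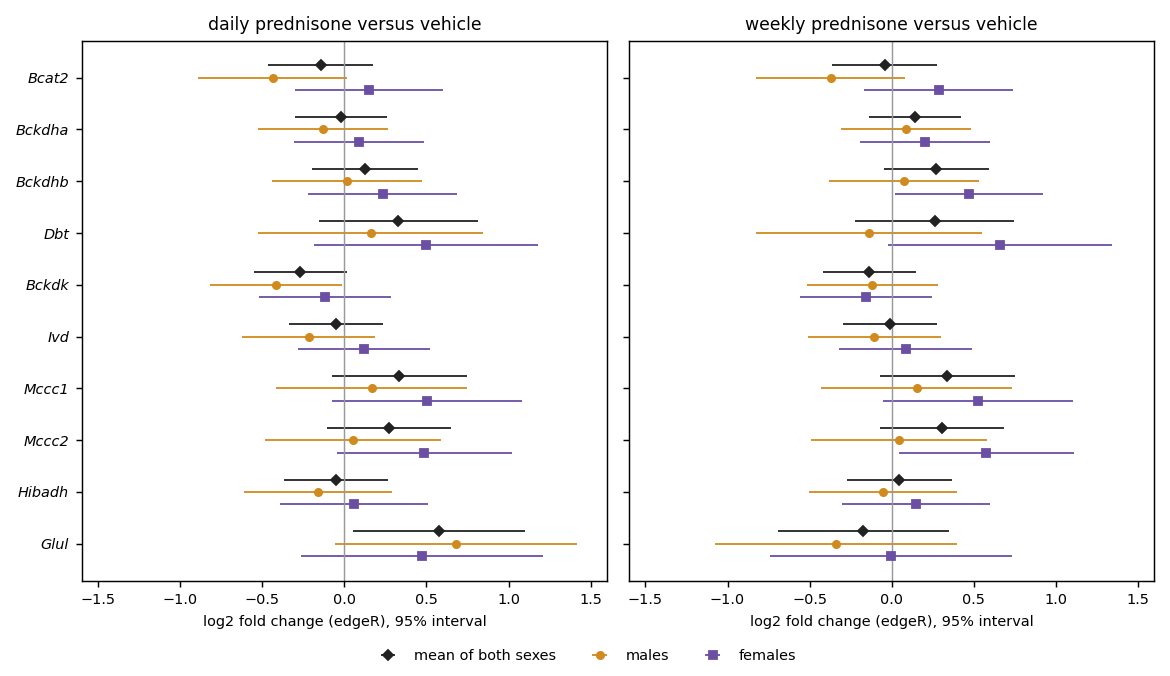
Log2 fold change of each gene against vehicle with its 95% interval from the edgeR fit, for daily prednisone (left) and weekly prednisone (right), in the mean of both sexes, in males and in females. The interval of the mean of both sexes excludes 0 for Glul on daily prednisone alone, and no point passed an adjusted p of 0.05.

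Markers of other tissue components were compared in the same libraries. In the mean of both sexes all 10 adipocyte markers were above 0 and edgeR called 7 of them, where it called 15% of all tested genes. Their median log2 fold change was 2.49, and their summed level ran from 741 to 1771 CPM on vehicle and from 1498 to 7142 CPM on daily prednisone. Only Lep was at 0, in 1 library. The adipocyte sum weighs its most abundant genes most. Over the 18 libraries Car3 ran from 226 to 3624 CPM, Fabp4 from 264 to 2224, Cfd from 29.6 to 2029 and Lpl from 165 to 1398. Plin1 ran from 1.49 to 190 CPM. Which cells these transcripts came from was not tested. Of 9 myofiber markers 2 were above 0 and 4 were called lower, with a median of -0.44. Their sum ran from 141270 to 213210 CPM on vehicle and from 124400 to 197970 CPM on daily prednisone. The 26 nuclear genes of the respiratory chain and citrate synthase share the mitochondrion with the BCAA enzymes. Of these, 4 were above 0 and 11 were called lower. Their median was -0.34, while the 9 members other than Glul had a median of -0.02. Of 8 markers of slow and oxidative fibers edgeR called 0, with 0 at an unadjusted p under 0.05, a median of 1.01 and a summed level from 72.6 to 372 CPM on vehicle and from 129 to 869 CPM on daily prednisone. Of 7 endothelial markers it also called 0, with 0 at an unadjusted p under 0.05 and a median of -0.11. With the adipocyte score (the mean log2 CPM of the markers) as a covariate the median of the 10 members moved from 0.05 to -0.35 and that of all tested genes stayed at 0.02. That fit called 0 members and 0 of all tested genes. The part of adipocyte RNA in the members' values was not tested.

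The comparison of weekly prednisone with vehicle asked about intermittent dosing. No member passed the test. In the mean of both sexes edgeR called 0 members and 0% of all tested genes, and at an unadjusted p under 0.05 it counted 0 members, where 11% of all tested genes reached that level. DESeq2 and limma-voom called 0 as well. Of the 10 adipocyte markers edgeR called 0, with 9 at an unadjusted p under 0.05 and a median of 1.98, and their summed level ran from 1214 to 9417 CPM. Of the 8 slow and oxidative fiber markers it called 0, with 7 at an unadjusted p under 0.05, all 8 above 0 and a median of 4.01. Their summed level ran from 151 to 3699 CPM, with a median of 234.5 CPM against 203.6 CPM on vehicle. Their score (mean log2 CPM) was 8.29 in female weekly replicate 1 and 6.20 in male weekly replicate 3. It was at most 3.38 in the other weekly libraries and at most 2.85 in the vehicle libraries. The part of either marker list in the members' values was not tested. The members' log2 fold changes ran from -0.17 ± 0.25 for Glul to 0.34 ± 0.19 for Mccc1. Mccc2 stood at 0.31 ± 0.18, Bckdhb at 0.27 ± 0.15, Dbt at 0.26 ± 0.23, Bckdha at 0.14 ± 0.13 and Hibadh at 0.05 ± 0.15. Ivd stood at -0.01 ± 0.14, Bcat2 at -0.04 ± 0.15 and Bckdk at -0.14 ± 0.13.

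Glul on weekly prednisone measured 398, 320.0 and 247 CPM in males and 365, 321 and 861 CPM in females. Of these, 2 of the male libraries lay below all 3 male vehicle libraries, and female replicate 3 was the highest of all 18 libraries. Bcat2 on weekly prednisone measured 56.0, 55.8 and 44.0 CPM in males, all below the male vehicle libraries, and 81.3, 47.6 and 97.7 CPM in females, on both sides of the female vehicle libraries. The male log2 fold change of Bcat2 was -0.37 ± 0.22 (edgeR, adjusted p = 0.849). In males edgeR called 0 members and 0% of all tested genes, with 0 members at an unadjusted p under 0.05 by edgeR, DESeq2 and limma-voom, where 5.71% of all tested genes reached that level with edgeR. Bcat2 was the 1 member without overlap, where 16.7% of all tested genes did not overlap.

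In females the 3 weekly libraries disagreed. Mccc1 measured 39.5, 19.1 and 53.2 CPM, Mccc2 34.2, 16.5 and 40.9 CPM, and Dbt 26.4, 13.98 and 42.1 CPM in replicates 1 to 3. Bckdhb measured 36.5, 19.2 and 34.1 CPM. For Mccc1, Mccc2 and Bckdhb, replicate 2 lay below all 3 female vehicle libraries and the other 2 lay above them, and for Dbt it lay within the range of the vehicle libraries. The log2 fold changes were 0.52 ± 0.27 for Mccc1, 0.57 ± 0.25 for Mccc2, 0.66 ± 0.32 for Dbt and 0.47 ± 0.21 for Bckdhb. EdgeR called 0 members and 0% of all tested genes in females, and at an unadjusted p under 0.05 it counted 2 members, Bckdhb and Mccc2, where 7.97% of all tested genes reached that level. DESeq2 called 0 with 3 at an unadjusted p under 0.05, and limma-voom called 0 with 0. Without female weekly replicate 2, Mccc1 (0.81, adjusted p = 0.0498) and Mccc2 (0.84, adjusted p = 0.0242) were called and all tested genes gave 253 calls, with Bckdhb at 0.68 (adjusted p = 0.0615) and Dbt at 0.94 (adjusted p = 0.101). That comparison rests on 2 weekly libraries with the highest adipocyte scores of the group.

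Daily prednisone was then compared with weekly prednisone. Glul was the member with the largest difference, 0.75 ± 0.25 in the mean of both sexes (edgeR, adjusted p = 0.0745) and 1.02 ± 0.35 in males (adjusted p = 0.229). In males all 3 daily libraries, at 509.6 CPM and above, lay above all 3 weekly libraries, at 398 CPM and below. In the mean of both sexes edgeR called 0 members, where 8.17% of all tested genes were called, and at an unadjusted p under 0.05 it counted 1, Glul, where the share of all tested genes was 24.1%. DESeq2 called 1 member, Glul, at 0.74 with an adjusted p of 0.0294, and limma-voom called 0. Over the alternatives other than leaving out a library, calls among all tested genes ran from 535 to 1434 (1111 as reported). Without female weekly replicate 3 the Glul difference was 1.04 and edgeR called it (adjusted p = 0.00945). Leaving out 1 library gave 568 to 1122 calls among all tested genes. The 9 other members lay between -0.16 and 0.07, with a median of -0.10 against -0.02 for all tested genes. Within each sex edgeR called 0 members and 0% of all tested genes, with 1 member at an unadjusted p under 0.05 in males (Glul, share of all tested genes 13.5%) and 0 in females (17.7%), and DESeq2 and limma-voom called 0. In males 2 members did not overlap, Glul higher and Bckdk lower on daily prednisone, where 24.5% of all tested genes did not overlap.

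The sexes were compared through the difference of their responses, females minus males. For daily prednisone edgeR called 0 members and 0% of all tested genes, with 0 members at an unadjusted p under 0.05 by edgeR, DESeq2 and limma-voom, where 4.69% of all tested genes reached that level with edgeR. For weekly prednisone it also called 0 and 0%, with 1 member at an unadjusted p under 0.05, Bcat2, where the share was 2.63%. DESeq2 gave 0 and 1 and limma-voom 0 and 0. The difference for Bcat2 was 0.66 ± 0.30 for weekly prednisone (95% interval 0.02 to 1.30, adjusted p = 1) and 0.59 ± 0.30 for daily prednisone (95% interval -0.06 to 1.23, adjusted p = 0.889). The difference was above 0 for 9 of the 10 members on daily prednisone, with a median of 0.32 against 0.03 for all tested genes, and for 9 of 10 on weekly prednisone, with a median of 0.35 against 0.01. The 26 respiratory chain genes were above 0 in 26 of 26 for daily prednisone, with a median of 0.36, and the 10 adipocyte markers in 8 of 10, with a median of 0.56. For weekly prednisone the respiratory chain genes were above 0 in 26 of 26, with a median of 0.16, and the adipocyte markers in 10 of 10, with a median of 1.10. Their part in the members' differences was not tested. Both responses share the vehicle libraries of each sex. Between female and male vehicle libraries edgeR called 0 members, where 0.765% of all tested genes were called, and 0 at an unadjusted p under 0.05 (share of all tested genes 10.4%), and the differences ran from -0.19 to 0.35. DESeq2 and limma-voom called 0 there too.

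The members rose and fell together between libraries of 1 group. The library whose members stood farthest below its own group mean was female weekly replicate 2, with a median deviation of -0.59 on the log2 scale over the 10 members, and it was the lowest of its group for all 10. Female weekly replicates 1 and 3 stood at 0.28 and 0.35. In males, daily replicate 2 was lowest of its group for all 10 members, with a median deviation of -0.33, and daily replicate 3 was highest for 8. The median SD of the members within the female weekly group was 0.57 on the log2 scale, where the median over all tested genes was 0.33, and all 10 members had their widest spread there. In the other 5 groups the median SD of the members lay between 0.14 and 0.30.

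The same libraries differed in other measures. The share of counts from mitochondrially encoded genes was 36.4% in female weekly replicate 2, 13.1% in replicate 1 and 20.3% in replicate 3. The adipocyte score was 5.16 in replicate 2, 7.51 in replicate 1 and 8.29 in replicate 3, and the respiratory chain score was 7.88, 8.81 and 8.23 in that order. With group means removed, the mean of the 9 members other than Glul had a correlation over the 18 libraries of 0.784 with the respiratory chain score, 0.702 with the adipocyte score, 0.574 with the myofiber score and -0.823 with the endothelial score. The correlation was -0.738 with the Schwann cell score, -0.535 with the satellite cell score and -0.515 with the fibroblast score. With the blood, slow fiber and macrophage scores it was -0.384, 0.281 and 0.236. These are descriptions over libraries whose values share a scaling, and the part of tissue makeup in the members' spread was not tested.

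**Figure D3:**
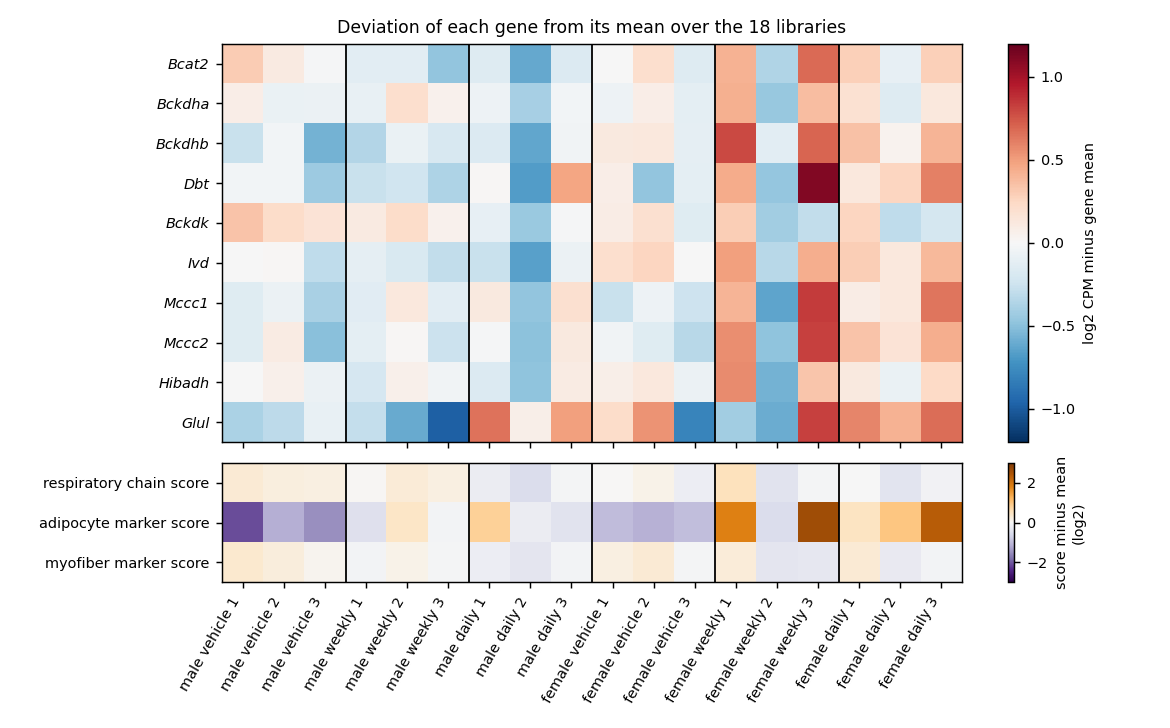
Upper map, log2 CPM of each gene in each library minus the mean of that gene over the 18 libraries, with black lines between groups. Lower map, the scores of the respiratory chain, adipocyte and myofiber lists on the same footing with their own color scale. The column of female weekly replicate 2 is mostly blue for the members while those of replicates 1 and 3 are mostly red, and Bckdk and Glul depart from the others in several columns.

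Among the 8 members other than Bckdk and Glul, the 28 pairwise correlations of within-group deviations ran from 0.698 to 0.945, with a median of 0.881. The highest were those of Bckdha with Hibadh at 0.945 and Ivd with Mccc2 at 0.944, and the subunits Mccc1 and Mccc2 reached 0.925. Bckdk had correlations from 0.180 to 0.708 with the other members, with a median of 0.593. Glul had correlations from 0.180 to 0.711, with a median of 0.484, so the kinase and glutamine synthetase followed the group less closely than the enzymes of the pathway followed each other. Over all 18 libraries the members varied between 1.72-fold, for Bckdk, and 3.49-fold, for Glul, from the lowest to the highest library.

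The genes whose pattern over the 18 libraries was most like the mean of the 9 BCAA members were Elmod3 (r = 0.938), Scp2, a sterol carrier protein (0.920), Adhfe1, a mitochondrial hydroxyacid-oxoacid transhydrogenase (0.913), Etfa, the alpha subunit of the electron transfer flavoprotein (0.912) and Kyat3, a kynurenine aminotransferase (0.910). Among those most like Glul were Sf1, a splicing factor (0.856), Plin4, a perilipin of lipid droplets (0.839), Pnrc1 (0.831), and Lemd3, a protein of the inner nuclear membrane (0.822). None of these genes stood in both lists.

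Further genes of the pathway were compared in the same fit. Of 19 further genes of BCAA catabolism, all tested, 1 was called higher and 1 lower in daily against vehicle libraries in the mean of both sexes. This is 10.5%, where 15% of all tested genes were called. Aldh6a1, the methylmalonate semialdehyde dehydrogenase of valine catabolism, ran from 54.0 to 72.4 CPM on vehicle, with a median of 67.5, and from 84.2 to 175 CPM on daily prednisone, with a median of 119. The log2 fold change was 0.86 ± 0.23 (edgeR, adjusted p = 0.0209). Without female daily replicate 3 its adjusted p was 0.0579, and with the adipocyte score as a covariate its change was -0.03. Mcee, the methylmalonyl-CoA epimerase of propionate metabolism, ran from 23.8 to 32.7 CPM on vehicle and from 16.8 to 22.2 CPM on daily prednisone. It fell by 0.50 ± 0.15 on the log2 scale (adjusted p = 0.0378). Its call was lost in 9 of the 12 fits that left out 1 vehicle or daily library, with an adjusted p up to 0.102 without female vehicle replicate 2. With library totals in place of TMM factors its change was -0.28 and was not called (edgeR, adjusted p = 0.205). Other genes of the route were not called. Bcat1, the cytosolic aminotransferase, was barely detected, at 0 to 1.56 CPM over the vehicle and daily libraries, with a change of 0.08 ± 0.53. Slc25a44, the mitochondrial BCAA carrier, stood at 0.15 ± 0.13, Ppm1k, the phosphatase that opposes Bckdk, at 0.01 ± 0.18, and Dld, the E3 subunit that several dehydrogenase complexes share, at 0.26 ± 0.17.

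Of 16 genes of amino acid transport and of glutamate and glutamine metabolism, 15 were tested. In daily against vehicle libraries 11 of the 15 were above 0. EdgeR called 3 higher in the mean of both sexes, which is 20% of those tested, where 15% of all tested genes were called. Slc38a2 and Slc1a5 were among the called genes. Slc38a2, a transporter of glutamine and other small neutral amino acids, measured 140.1, 154 and 137 CPM in male vehicle libraries and 297, 273 and 283 CPM in male daily libraries. In females it measured 106, 105 and 59.6 CPM on vehicle and 129, 194 and 156 CPM on daily prednisone. Within each sex the groups did not overlap, where 33.4% of all tested genes did not overlap in males and 23.1% in females. Its log2 fold change was 0.90 ± 0.14 in the mean of both sexes (edgeR, adjusted p = 0.00118) and 0.98 ± 0.20 in males (adjusted p = 0.0125), while on weekly prednisone it was 0.04 ± 0.14. Without male vehicle replicate 1 the male adjusted p was 0.0649. The adipocyte covariate ended both calls, at 0.75 (adjusted p = 0.112) in the mean of both sexes and 0.86 (adjusted p = 0.0809) in males. In the mean of both sexes the fit with that covariate called 0 of all tested genes. Slc1a5, a neutral amino acid exchanger that carries glutamine, ran from 20.5 to 41.6 CPM on vehicle and from 36.1 to 250.3 CPM on daily prednisone and rose by 1.51 ± 0.40 (adjusted p = 0.0209). On weekly prednisone Slc1a5 ran from 44.8 to 273 CPM, a change of 1.57 ± 0.40 that was not called (adjusted p = 0.196). Its daily change was 1.07 without female daily replicate 3 (adjusted p = 0.058) and -0.17 with the adipocyte score as a covariate. The daily call was also lost without female vehicle replicate 2 (adjusted p = 0.0551), male daily replicate 1 (0.0532) or male vehicle replicate 1 (0.0528), and with no filter on low counts (0.0552).

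Klf15, a glucocorticoid-induced transcription factor known to activate BCAA catabolic genes, ran from 29.0 to 64.2 CPM on vehicle and from 37.2 to 59.2 CPM on daily prednisone, a change of 0.13 ± 0.18 (edgeR, adjusted p = 0.685). None of the 3 regulators listed (Klf15, Nr3c1 and Ppargc1a) was called by edgeR in this comparison. The 2 other than Klf15 were at an unadjusted p under 0.05, where 29.2% of all tested genes reached that level. In weekly against vehicle libraries none of these lists had a called gene. In daily against weekly libraries the transport list had 4 called genes of 15 tested (26.7%, where 8.17% of all tested genes were called), all higher, among them Slc38a2, Slc7a8 and Gpt2, of which Slc7a8 (0.77 ± 0.18) and Gpt2 (0.38 ± 0.11) are named after their values were seen.

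**Figure D4:**
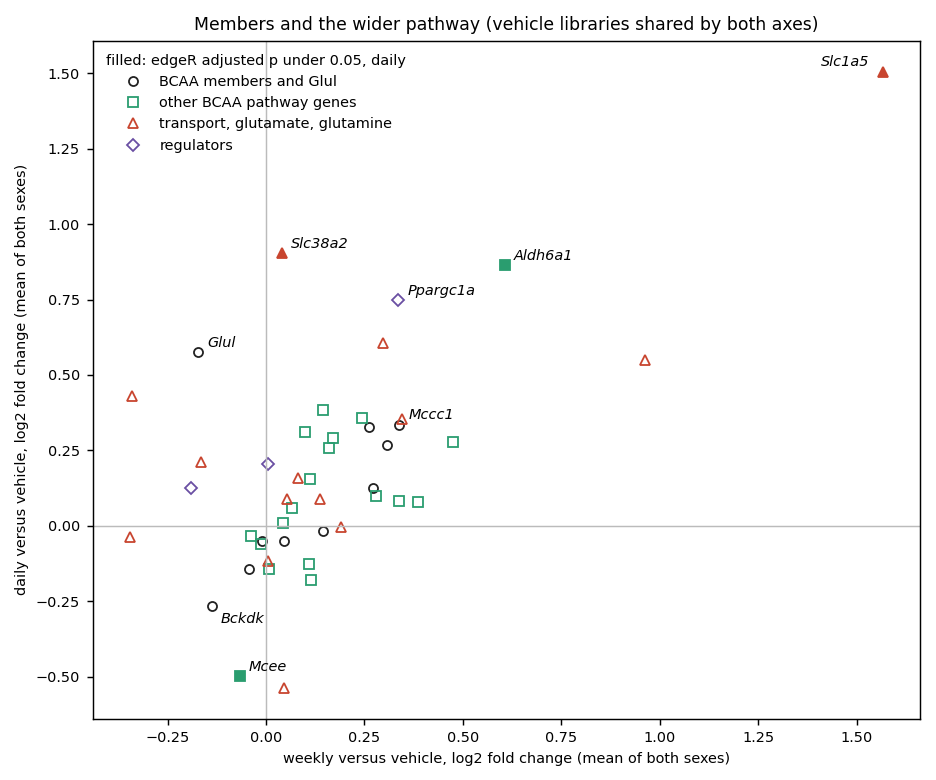
Log2 fold change on daily prednisone (vertical) against that on weekly prednisone (horizontal), both against the same vehicle libraries in the mean of both sexes, for the 10 members and genes of the 3 further lists. Filled symbols passed an adjusted p of 0.05 on daily prednisone. Slc38a2 at 0.90 daily and 0.04 weekly lies near the vertical axis, Slc1a5 and Aldh6a1 lie high on both, and the members lie between -0.27 and 0.58 on the vertical axis.

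The counting leaves some of these values less certain. Bckdha shares 1171 exon bases with B3gnt8 on the opposite strand, which held 239 counts against 25443 for Bckdha over all libraries. Glul shares 116 bases with Teddm2 on the opposite strand, which held 943 counts against 118995 for Glul. Mccc1 overlaps the antisense genes Gm15952 and Mccc1os. The strand setting of the counting is not given in the sources used here, so reads of a gene and its antisense partner cannot be told apart. The lowest count of any member in any library was 128, for Dbt, and the median SE of the 10 members in daily against vehicle libraries was 0.15 in the mean of both sexes and 0.22 in males.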

How the data were processed

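Raw counts per gene were used, which the authors had deposited as 1 table for the 18 libraries. Per the submitters' processing notes, reads were aligned with TopHat2 2.1.0 and Bowtie2 2.2.6 and counted with HTSeq, and the notes name mm10 and mm9. The study's methods name mm10, on which the coordinates here are given. The annotation release and the strand setting are not given in the sources used here, and no statistical test is stated for the sequencing.

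Members, gene lists and comparisons were chosen with earlier results of these data known. Genes with enough counts (edgeR 4.0.16, filterByExpr, minimum count 10) were scaled by TMM and fitted with 6 group means over all 18 libraries by the robust quasi-likelihood test, in R 4.3.3. P-values of the 13596 genes kept were adjusted by Benjamini-Hochberg, and a gene was called where the adjusted value was under 0.05. SE was the log2 fold change over the root of F, and log2 CPM used a prior count of 2. A contrast of the mean of both sexes averaged the contrasts within males and females. The fit was tested on simulated counts.

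Named genes were the 10 members, genes of the further BCAA, transport and regulator lists called against vehicle, and Klf15, Slc25a44, Ppm1k, Dld and Bcat1. Some genes that this rule or the likeness to Glul would name are not reported here. Marker scores were means of log2 CPM over listed genes. DESeq2 1.42.0, limma-voom (limma 3.58.1), other scalings and filters, the compared groups alone, marker scores as covariates, a replicate block and leaving out each library were alternatives. Same-numbered treated and vehicle libraries did not deviate together, so the numbers were not taken as pairs. No 2 libraries of a group agreed within sampling noise (lowest chi-square per degree of freedom 13.1).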

Additional observations from a re-analysis of the deposited data

How the results depend on the processing

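The number of members called was 0 in all comparisons and became 1, by Glul, in daily against vehicle libraries without TMM and with the compared groups alone, in males with the compared groups alone, and in daily against weekly libraries with DESeq2 and with the adipocyte covariate (0.78, adjusted p = 0.0447). Leaving out 1 library gave 0 to 1 members in daily against weekly libraries and 0 to 2 in weekly against vehicle females. In males with the compared groups alone Glul had an adjusted p of 0.0351. The numbers of all tested genes called also moved between these settings and are given below as ranges.

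Library totals without TMM moved the median of all tested genes by 0.23 (daily against vehicle) and 0.14 (weekly against vehicle), and turned the direction of Bcat2 (0.075), Bckdha (0.20), Ivd (0.17) and Hibadh (0.17) for daily and of Bcat2 (0.11), Bckdk (0.0078) and Ivd (0.14) for weekly prednisone. Without TMM the call of Mcee for daily prednisone was lost (-0.28, edgeR adjusted p = 0.205). Near 0, Bckdha became 0.012 with no filter and Ivd, weekly, 0.0057 with a minimum count of 50. Ppm1k became -0.003 with DESeq2 size factors, -0.0045 with DESeq2, -0.021 with limma-voom and -0.082 with the slow fiber covariate, and Bcat1 became -0.26 with limma-voom. The slow fiber covariate, chosen after seeing the data, also turned Hibadh (-0.16) and Glul (0.043) for weekly prednisone.

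The adipocyte covariate turned, for daily prednisone, Bckdhb (-0.30), Dbt (-0.33), Mccc1 (-0.39), Mccc2 (-0.29), Aldh6a1 (-0.031), Slc1a5 (-0.17), Klf15 (-0.18), Slc25a44 (-0.19), Ppm1k (-0.17), Dld (-0.24) and Bcat1 (-0.26). In females it turned Mccc1 (-0.35), Mccc2 (-0.16) and Glul (-0.11). For weekly prednisone it turned Bckdha (-0.23), Bckdhb (-0.16), Dbt (-0.44), Mccc1 (-0.43), Mccc2 (-0.29) and Hibadh (-0.41), and in females Bckdhb (-0.071), Dbt (-0.23), Mccc1 (-0.43) and Mccc2 (-0.17). The fit with the adipocyte covariate called 0 of all tested genes in daily against vehicle libraries in the mean of both sexes. Among the calls it ended were those of Slc38a2 (0.75, adjusted p = 0.112, and in males 0.86, adjusted p = 0.0809) and Mcee (-0.67, adjusted p = 0.176, a larger change than the -0.50 reported). The cause was not tested.

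Leaving out 1 library gave ranges across 0, for daily prednisone of -0.22 to 0.42 in Bcat1, -0.0945 to 0.093 in Ppm1k, -0.054 to 0.035 in Bckdha, -0.11 to 0.016 in Hibadh and -0.10 to 0.022 in Ivd, and for weekly prednisone of -0.16 to 0.068 in Bcat2, -0.071 to 0.17 in Hibadh and -0.082 to 0.0885 in Ivd.

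With the replicate block the number of members called was 0 in every comparison, and all 45 fold changes kept their direction and their side of the threshold, as they did without mitochondrially encoded genes. The replicate numbers were shared by the groups, but of the pairs of groups only female daily and female weekly had all 3 same-numbered pairs over 0.1 in the correlation of their deviations (0.439 to 0.501).

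Over all tested genes, calls in daily against vehicle libraries numbered 2033 and ran from 0 (adipocyte covariate) to 3486 over the alternatives other than leaving out a library. They ran from 39 to 1530 in males (878 as reported), from 0 to 530 in females (52), from 0 to 183 in weekly against vehicle libraries (0), from 0 to 152 in its females (0), from 535 to 1434 in daily against weekly libraries (1111), from 0 to 225 in its males (0), from 0 to 546 in its females (0) and from 74 to 235 in female against male vehicle libraries (104). With 3 libraries a group, the median SE of the members, 0.15 in the mean of both sexes and 0.22 within males, limits what could be called. These SEs rest on a spread shared by all 6 groups, including the female weekly group, where the members varied most. With the compared groups alone the SE of Glul in daily against vehicle libraries was 0.19 in the mean of both sexes (0.25 as reported). In males it was 0.17 (0.35 as reported).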

Other observations

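Bckdk and Dbt encode the kinase and the E2 core of the same complex, and their ratio within a library does not depend on the scaling. In CPM it ran from 7.18 to 11.6 over the 6 vehicle libraries, with a median of 9.10, and from 4.14 to 8.60 over the 6 daily libraries, with a median of 5.97. On weekly prednisone it ran from 2.73 to 10.02, with a median of 8.53. The ratio was chosen after its values were seen and no test was run on it.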
